A study of Mus musculus with 8 samples.

Results

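The 10 Wnt ligand genes Wnt4, Wnt5a, Wnt6, Wnt7a, Wnt7b, Wnt9a, Wnt9b, Wnt10a, Wnt10b and Wnt11 were examined for acetylation of histone H3 at lysine 27 (H3K27ac), a mark of active promoters and enhancers, in mouse collecting duct cells. They are 10 of the 19 Wnt genes and of 21887 protein-coding genes on the assembled chromosomes. The ligands were listed by name, but chosen by someone who had earlier results of these peak lists in view, and the listing asks for dDAVP against vehicle. Peak calls and that contrast are therefore given as descriptions without a test. Each gene was taken with 20 kb on either side, and every peak overlapping that window was counted.

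The cells were mpkCCD, a line from mouse cortical collecting duct, grown as clone 11 alone and used at passages 6 to 10, so that both treatments came from 1 clone. All cultures stood on permeable supports and spent 24 h without serum or hormones before treatment. They then received 0.1 nM dDAVP, a vasopressin analogue selective for the V2 receptor, or its vehicle for 24 h. Chromatin precipitated with an H3K27ac antibody (4 libraries) and the matching input (4 libraries) was sequenced in 2 experiments, with 1 dDAVP and 1 vehicle library of each kind per experiment. The experiment number serves as the replicate number, and each of the 4 peak lists comes from 1 precipitated library set against its own input.

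Wnt proteins are secreted, lipid-modified ligands. They bind Frizzled receptors with the co-receptors Lrp5 and Lrp6, which leads to stabilisation of beta-catenin and transcription with TCF and LEF factors, or they act through routes without beta-catenin. In the developing kidney, Wnt9b from the nephric duct and its branches induces the nephron-forming mesenchyme, Wnt4 acts in that mesenchyme as it becomes epithelium, Wnt11 marks the branching tips, and Wnt7b from the collecting duct is needed for the medulla.

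The dDAVP lists were the shorter ones in both experiments. Kept tags of the precipitated libraries lay between 27923780 (dDAVP replicate 1) and 32705755 (vehicle replicate 1), so the extremes were the pair of experiment 1. The inputs of that pair kept 38291361 tags (dDAVP) and 35901413 tags (vehicle). Whether these depths bear on the peak cover was not tested. Experiment 1 had 99.0 Mb under peaks after dDAVP against 104.1 Mb after vehicle, a ratio of 0.951, and experiment 2 had 33.5 Mb against 56.9 Mb, a ratio of 0.590. dDAVP replicate 2 had the fewest peaks, 20124, with 31676748 precipitated tags, more than dDAVP replicate 1 had. All 6 principal cell markers (Aqp2, Aqp3, Avpr2, Scnn1a, Gata3, Hsd11b2) and all 4 epithelial markers had a gene end within 1 kb of a peak in all 4 lists, as had 1 of 4 markers each of intercalated and proximal tubule cells, 0 of 3 of the thick limb and distal tubule, 0 of 4 of fibroblasts, 0 of 3 of endothelium and 1 of 3 of leukocytes. Over all protein-coding genes this share was 45.2%.

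Promoters are shown first, because the edges of the peaks lay at the start sites of several ligands. The 250 bases before the annotated start of transcription are printed 5′ to 3′ on the gene's strand, from RefSeq (GRCm38.p6, the assembly of mm10). Entries were matched for 7 of the 10 ligands, and Wnt5a, Wnt7b and Wnt10a are described by both ends of the gene. Wnt7a, Wnt4, Wnt9a and Wnt9b had a peak within 1 kb of the start in all 4 lists, and Wnt10b and Wnt11 are shown for contrast, with no peak there in any list. Capitals mark GC boxes (GGGCGG on either strand) and half-sites of the cAMP response element (TGACG on either strand).
Wnt7a (chr6:91411354-91411603, - strand): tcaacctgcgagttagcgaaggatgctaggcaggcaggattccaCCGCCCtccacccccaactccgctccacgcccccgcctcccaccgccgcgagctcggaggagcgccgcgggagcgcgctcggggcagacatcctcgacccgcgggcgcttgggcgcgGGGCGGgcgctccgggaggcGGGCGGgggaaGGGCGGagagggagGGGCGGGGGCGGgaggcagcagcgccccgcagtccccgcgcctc
Wnt4 (chr4:137277385-137277634, + strand): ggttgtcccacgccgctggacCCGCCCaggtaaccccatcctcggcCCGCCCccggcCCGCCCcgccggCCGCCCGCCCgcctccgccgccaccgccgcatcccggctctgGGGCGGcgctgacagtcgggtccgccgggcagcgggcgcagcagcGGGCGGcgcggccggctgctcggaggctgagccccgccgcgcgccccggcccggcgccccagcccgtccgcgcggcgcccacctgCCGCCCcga
Wnt9a (chr11:59306680-59306929, + strand): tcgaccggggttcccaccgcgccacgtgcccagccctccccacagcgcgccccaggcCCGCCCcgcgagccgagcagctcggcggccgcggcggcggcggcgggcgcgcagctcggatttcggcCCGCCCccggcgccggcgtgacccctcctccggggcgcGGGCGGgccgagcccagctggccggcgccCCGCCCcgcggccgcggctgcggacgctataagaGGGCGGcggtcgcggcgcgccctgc
Wnt9b (chr11:103749822-103750071, - strand): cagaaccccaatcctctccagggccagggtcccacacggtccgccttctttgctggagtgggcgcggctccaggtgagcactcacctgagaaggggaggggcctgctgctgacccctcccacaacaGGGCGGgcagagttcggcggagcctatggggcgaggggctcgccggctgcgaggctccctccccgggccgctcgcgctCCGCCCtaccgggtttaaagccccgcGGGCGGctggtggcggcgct
Wnt10b (chr15:98778151-98778400, - strand): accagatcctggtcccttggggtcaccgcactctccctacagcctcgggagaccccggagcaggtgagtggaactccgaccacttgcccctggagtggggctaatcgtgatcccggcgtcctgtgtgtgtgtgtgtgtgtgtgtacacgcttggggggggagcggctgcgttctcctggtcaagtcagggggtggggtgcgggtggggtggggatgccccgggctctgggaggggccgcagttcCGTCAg
Wnt11 (chr7:98834862-98835111, + strand): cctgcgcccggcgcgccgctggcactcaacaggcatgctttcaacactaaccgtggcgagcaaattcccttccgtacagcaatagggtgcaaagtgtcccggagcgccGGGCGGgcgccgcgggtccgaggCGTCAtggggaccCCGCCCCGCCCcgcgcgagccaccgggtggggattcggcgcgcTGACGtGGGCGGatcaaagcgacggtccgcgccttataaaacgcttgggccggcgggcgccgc
The promoters with a nearby peak were rich in G and C. The 250 bases held 77.6% G and C in Wnt7a, 85.2% in Wnt4, 84.4% in Wnt9a and 72% in Wnt9b, against a median of 55.6% over 21263 promoters of 17492 protein-coding genes. Wnt6, with no peak within 1 kb of its start, had 79.6%, so this property did not separate the ligands with a peak from those without. Wnt10b had 66.8%, and the upstream and downstream starts of Wnt11 had 70.8% and 56.8%. GC boxes, counted with overlaps, numbered 6 in Wnt7a, 8 in Wnt4, 5 in Wnt9a, 3 in Wnt9b, 6 in Wnt6 0 in Wnt10b, and 4 and 0 at the upstream and downstream starts of Wnt11, and 42.6% of all promoters held at least 1. The half-site TGACG was found in Wnt10b (1 match) and at both starts of Wnt11 (2 matches and 1 match), and 20.2% of all promoters held it. It was not found in these windows of Wnt4, Wnt6, Wnt7a, Wnt9a and Wnt9b. The TCF and LEF motif CTTTGAT was matched once, upstream of Wnt11 (2.82% of all promoters), and the AP-1 motif TGANTCA in none of the ligands (6.13%), both strands being read.

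The mark was found in the windows of 9 of the 10 ligands in all 4 lists, and in that of Wnt5a in none. Over all protein-coding genes, 62.0% of such windows had a peak in all 4 lists. Within the span of the gene itself the number was 6, namely Wnt4, Wnt7a, Wnt7b, Wnt9a, Wnt9b and Wnt10a, where 49.5% of all genes had one. Wnt6, Wnt10b and Wnt11 thus owed their count to peaks outside the gene. The peaks of the 10 windows merged into 26 regions, of which 17 (65.4%) held a peak in all 4 lists, 4 in 2 or 3 lists, and 5 in a single vehicle list. None was restricted to dDAVP. Over the 45705 merged regions of the genome, 36.2% held a peak in all 4 lists, 21.7% in vehicle lists only and 12.1% in dDAVP lists only.

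**Figure D1:**
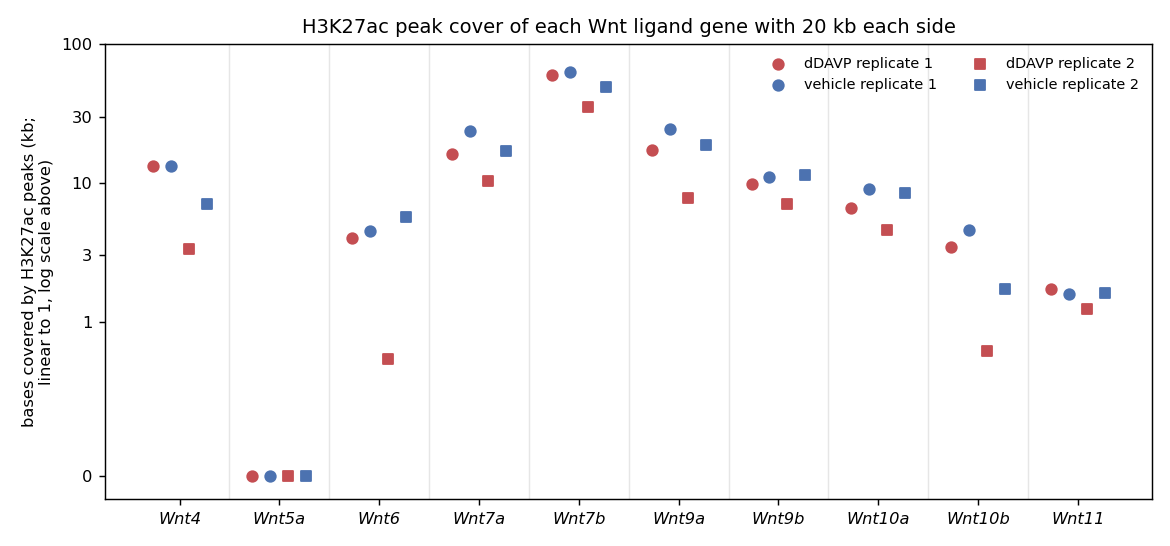
Bases covered by H3K27ac peaks (kb, linear to 1 and logarithmic above) in the 20 kb window of each Wnt ligand gene, 1 point per list, red for dDAVP, blue for vehicle, circles for experiment 1 and squares for experiment 2. Wnt7b lies highest in every list, Wnt5a at 0 in every list, and the red squares lie below the blue squares for the other 9 ligands.

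Wnt7b, a ligand made by the collecting duct epithelium during kidney development, carried the broadest mark (chromosome 15, 85535437 to 85581821). The whole gene, 46385 bp, was covered in dDAVP replicate 1 and vehicle replicate 1, by single peaks of 55956 and 60449 bp. In experiment 2 the cover broke into several peaks, and 56.5% of the gene remained covered with dDAVP and 74.6% with vehicle. With the flanks, experiment 1 had 59653 covered bases after dDAVP against 62951 after vehicle, and experiment 2 had 35236 against 48689. As a share of the window these are 69.1%, 72.9%, 40.8% and 56.4%, all above the highest share of any other ligand, 36.5% for Wnt9a in vehicle replicate 1. Both ends of the gene were covered in all 4 lists. By the authors' fold enrichment, its highest peak stood at percentiles 83.9 (dDAVP) and 91.3 (vehicle) of all peaks of its own list in experiment 1, and at 85.8 (dDAVP) and 88.7 (vehicle) in experiment 2. Such ranks hold within a list and show no change between lists.

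Wnt7a, known for dorsal patterning of the limb and for the female reproductive tract, carried the mark at separate places along the gene (chromosome 6, 91363981 to 91411353, minus strand). In experiment 1 its window had 16060 covered bases after dDAVP against 23687 after vehicle, and in experiment 2 it had 10241 against 16907. Both dDAVP values lay below both vehicle values, as they also did for Wnt6, Wnt9a, Wnt9b and Wnt10a. That comparison also crosses the experiments, whose lists differed in total cover. No share of all genes was counted for it, so it is not a result about these ligands. The ratios of dDAVP to vehicle were 0.678 and 0.606, and the difference was -7147 ± 680 bp (SD, n = 2 experiments). The smallest p that an exact permutation within 2 pairs can give is 0.5, so this difference was not tested. Where all lists were shortened to equal covered bases, keeping the peaks of highest fold, no peak of Wnt7a was left in experiment 1 and the mean difference was -1113 ± 1574 bp. With covered bases made equal within each experiment only, a setting added after the data were seen, Wnt7a had 16060 against 23687 bp in experiment 1 and 10241 against 12467 bp in experiment 2, a mean difference of -4926.5 ± 3819 bp. Both ratios were at or below those of Wnt7a in 503 other genes (3.71% of 13566 genes with a peak in the window in all 4 lists), a count made after the values of Wnt7a had been seen. Taken singly, 5.85% of these genes had a lower ratio than Wnt7a in experiment 1 and 35.8% in experiment 2. Experiment 1 first, these shares were 7.27% and 12.6% for Wnt9a, 8.30% and 27.5% for Wnt10a, and 11.0% and 18.4% for Wnt10b. They were 27.5% and 0.74% for Wnt6, 28.4% and 37.0% for Wnt9b, and 40.9% and 55.6% for Wnt7b. Wnt4 had 53.1% and 18.9%, and Wnt11 had 73.1% and 64.4%. Low ranks were thus not particular to Wnt7a. In experiment 2 the ratio of the whole lists was 0.590, so the low rank of Wnt7a rests on experiment 1. Without the flanks, 32.9% of the gene was covered after dDAVP against 48.9% after vehicle in the first pair, and 21.6% against 34.6% in the second pair.

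Along Wnt7a, 4 regions were shared by all 4 lists, and in each of them the dDAVP peaks covered fewer bases than the vehicle peaks in both experiments. The region at the start (chr6:91409088-91411875) was covered over 2288 and 2765 bp in experiment 1 and 1329 and 2531 bp in experiment 2, dDAVP first. A second, 20.1 to 22.8 kb downstream of the start (chr6:91388547-91391297), was covered over 2502 and 2751 bp, and over 1899 and 2425 bp. The broad region 25.5 to 34.8 kb downstream (chr6:91376505-91385882) differed most, with 9378 bp after vehicle against 3955 bp after dDAVP in experiment 1, and 4440 against 849 bp in experiment 2. Its difference, dDAVP minus vehicle, was -5423 of the -7627 bp of the whole window in experiment 1, and -3591 of -6666 bp in experiment 2. The region toward the far end of the gene (chr6:91366347-91374778) was covered over 7315 and 8218 bp, and over 6164 and 7511 bp. Its peak had the highest fold of the gene in vehicle replicate 1 (5.69), dDAVP replicate 2 (5.16) and vehicle replicate 2 (7.85), and stood just below the broad region in dDAVP replicate 1 (4.18 against 4.19). One more region, of 575 bp and 11.0 to 11.5 kb downstream, was found in vehicle replicate 1 alone.

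Wnt9a, a ligand of joint formation, had its strongest peak just downstream of the start (chromosome 11, 59306849 to 59333552, plus strand). Its window had 17144 covered bases after dDAVP against 24332 after vehicle in experiment 1, and 7717 against 18636 in experiment 2. Again both dDAVP values lay below both vehicle values, with the same limit as for Wnt7a. The ratios were 0.705 and 0.414. The first region (chr11:59305685-59314937) held the peak of highest fold of the window in each of the 4 lists. A region 15.3 to 23.7 kb downstream of the start and another beyond the gene (chr11:59334989-59338618) had peaks in all lists but dDAVP replicate 2. The other 2 regions lay 10895 and 15624 bp beyond the gene and were found in all 4 lists. Wnt3a, whose gene reaches into this window, had neither end within 1 kb of a peak in any list.

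Wnt4, a gene of the mesenchyme-to-epithelium change, was covered around its start and up to 10.9 kb downstream (chromosome 4, 137277635 to 137299501, plus strand). After dDAVP its window had 13191 covered bases against 13222 after vehicle in experiment 1, and 3341 against 6981 in experiment 2. The first pair differed by 31 bp, and the ratios were 0.998 and 0.479. Counted over the gene alone, dDAVP exceeded vehicle in experiment 1, with 10870 against 9633 bp, and not in experiment 2, with 3341 against 4772 bp.

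Wnt9b, the inducer of nephron formation, had its main peak inside the gene, 9.13 to 17.7 kb downstream of the start (chr11:103732164-103740690, gene on the minus strand). The window had 9776 covered bases after dDAVP against 11010 after vehicle in experiment 1, and 6993 against 11396 in experiment 2. The main region alone had 8158 against 8066 bp in experiment 1, slightly more after dDAVP, and 6768 against 8060 bp in experiment 2. It was 1 peak in every list, and the one of highest fold in the window each time. Wnt3, whose gene overlaps the RefSeq span of Wnt9b, had a peak of 646 bp in vehicle replicate 2 and none in the other lists.

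Wnt10a and Wnt6 are neighbours on chromosome 1, and their windows share peaks. Wnt10a, a ligand of teeth and skin appendages (74792019 to 74804176), had a peak over its lower-coordinate end in all 4 lists and another over or beyond its other end. Its window had 6534 covered bases after dDAVP against 9043 after vehicle in experiment 1, and 4596 against 8382 in experiment 2. Both dDAVP values lay below both vehicle values, with the same limit as for Wnt7a. One more region (chr1:74816587-74817583) overlapped the transfer RNA gene n-TGgcc3. Wnt6, a ligand of the ureteric bud (74754342 to 74785322), had no peak in its own span. The nearest peak to its start lay 18782 to 19819 bp downstream, at Wnt10a, depending on the list. Its window had 3995 and 4523 bp covered in experiment 1, dDAVP first, and 757 and 5694 bp in experiment 2. The last value includes a peak at Prkag3 that was found in vehicle replicate 2 alone. The Wnt6 window ended at 74805322, inside the region chr1:74802715-74808878. In full, that region had 4224 and 6131 bp in experiment 1, dDAVP first, and 3598 and 6090 bp in experiment 2. With only peaks that had 50% in the window, Wnt6 had 3995 and 1915 bp in experiment 1, dDAVP first, and 498 and 3160 bp in experiment 2. Its experiments then went in different directions.

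The peaks in the windows of Wnt10b and Wnt11 overlapped other genes and not the ligand gene. Some regions over a ligand gene also overlapped a noncoding gene, namely Gm30437 (Wnt7a start), Gm51865 (Wnt9a start), AU022754 (Wnt7b) and Gm32099 (Wnt10a). Wnt10b, a ligand that promotes bone formation, had its nearest peak 14007 to 14620 bp from its start, over an end of Arf3, which encodes a small GTPase of the Golgi (chr15:98760600-98764143). The covered bases of that window were 3446 and 4539 in experiment 1, dDAVP first, and 809 and 1709 in experiment 2. Wnt11 had 1 peak per list, 18.3 to 20.5 kb upstream of its first start, over the transfer RNA genes n-TPtgg8 and n-TPagg7 (chr7:98814593-98816809). The window began inside this region, at 98815084. Covered bases within the window were 1726 and 1579 in experiment 1, dDAVP first, and 1227 and 1595 in experiment 2, so the 2 experiments went in different directions. In full, the peaks had 2192 and 2070 bp in experiment 1, and 1227 and 1646 bp in experiment 2. With windows of 10 kb the peak of Wnt11 fell outside. For Wnt5a, a ligand of routes without beta-catenin, the peak nearest to either end of the gene lay 136417 bp away in vehicle replicate 1 and at least 643637 bp away in the other lists.

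**Figure D2:**
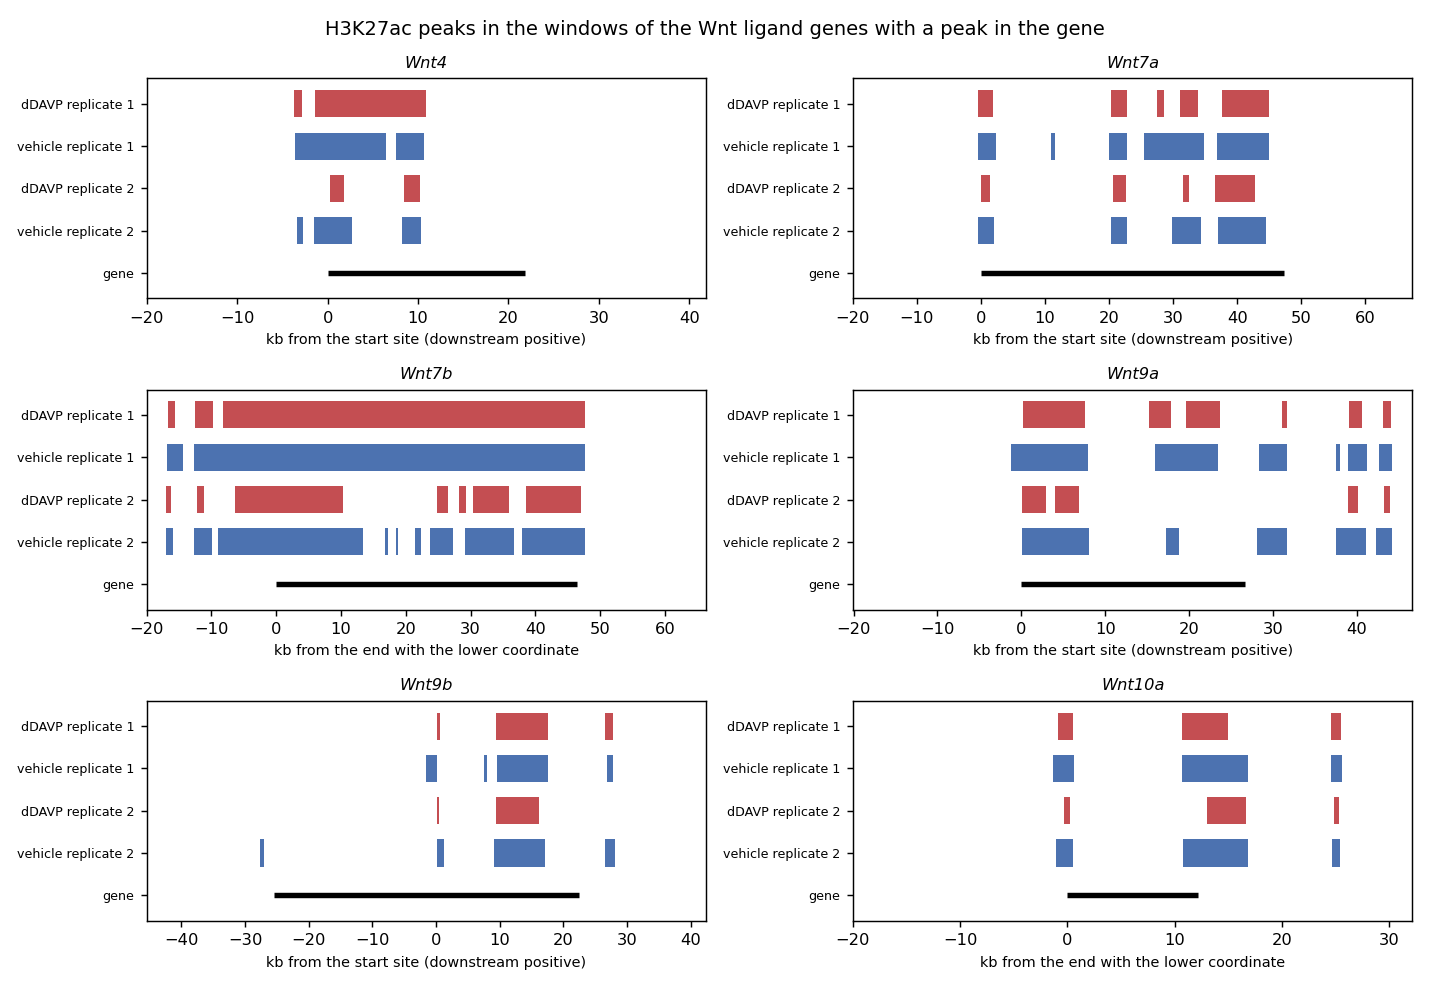
H3K27ac peaks of each list (bars, red for dDAVP and blue for vehicle) along the windows of the 6 ligands with a peak in the gene, in kb from the start site, or from the end with the lower coordinate for Wnt7b and Wnt10a, with the gene in black. Wnt7b is covered throughout in experiment 1 and in pieces in experiment 2, and the Wnt7a bars are shorter with dDAVP at each shared place.

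Fewer bases were covered with dDAVP than with vehicle in both experiments for 8 of the 9 ligands with peaks, Wnt11 being the exception, and more in both for 0. Among the 13566 genes with a peak in the window in all 4 lists, 52.5% had fewer in both and 2.34% had more in both. Experiment 1 gave 8 of 9 ligands with fewer bases, where 53.8% of genes had fewer, and experiment 2 gave 9 of 9, where 96.3% of genes had fewer. The count in experiment 2 is therefore near that of all genes. The median ratio of the 9 ligands was 0.883 in experiment 1 and 0.548 in experiment 2, beside 0.985 and 0.694 over all these genes. The windows of Wnt6 and Wnt10a share 2 regions, so the 9 ligands are not 9 separate observations. Wnt6 left the 8 when only peaks with 50% in the window were counted. Of the 17 regions found in all 4 lists, 15 had fewer bases with dDAVP in both experiments (the others being the main region of Wnt9b and that of Wnt11), beside 51.3% of all 16537 such regions. Over the gene spans alone, 4 of the 6 ligands with a peak there in all lists (Wnt7a, Wnt9a, Wnt9b and Wnt10a) had fewer in both, beside 45.5% of all genes with such a peak.

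The count of 8 changed when the lists were made alike in strength or in total cover. With peaks of at least 5-fold enrichment it was 3 (Wnt7a, Wnt7b and Wnt9a), and 41.1% of the same 13566 genes had fewer in both. With all lists shortened to equal covered bases it was 3 (Wnt7b, Wnt9a and Wnt10b), beside 27.9% of genes. In these counts a gene left with no peak in either list of an experiment does not count as having fewer. With covered bases made equal within each experiment only, it was 6 (Wnt6, Wnt7a, Wnt7b, Wnt9a, Wnt10a and Wnt10b), beside 32.3% of genes. Wnt11 then had more with dDAVP in both experiments, Wnt4 and Wnt9b went in different directions in the 2 experiments, and the vehicle list of experiment 2 kept no peak of Wnt4 or Wnt11.

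**Figure D3:**
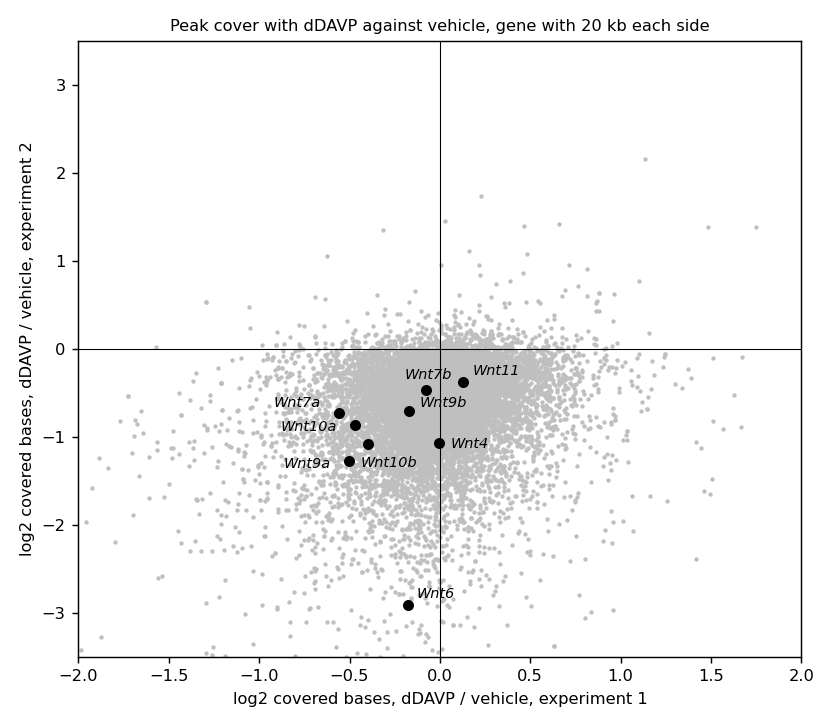
Log2 ratio of covered bases, dDAVP over vehicle, in experiment 1 (horizontal) and experiment 2 (vertical), for the 9 ligands with peaks (black) and all protein-coding genes with a peak in the window in all 4 lists (grey), with 48 genes beyond the axes. The ligands lie below 0 on the vertical axis, as 96.3% of genes do, and 8 of 9 lie below 0 on the horizontal axis.

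At the start sites the lists differed in where the peaks ended. A promoter entry, here the 250 bases before and 50 bases after a start, was touched by a peak in all 4 lists for 0 of the 7 ligands with an entry, while 42.9% of 17492 genes had such a peak. Wnt5a, Wnt7b and Wnt10a had no entry and are outside this count. Both ends of Wnt7b and the lower-coordinate end of Wnt10a were covered in all 4 lists. Within 1 kb of the start, 4 of 7 ligands had a peak in all 4 lists, where 46.9% of genes had. Of the 8203 genes in that last group, 91.4% also had the promoter entry itself touched in all 4 lists. The 4 ligands in it (Wnt4, Wnt7a, Wnt9a, Wnt9b) had theirs touched in 2 cases (dDAVP) and 4 cases (vehicle) of experiment 1, and in 0 (dDAVP) and 3 cases (vehicle) of experiment 2. Over the 8203 genes these shares were, in that order, 98.8%, 99.1%, 91.8% and 98.0%. Without dDAVP replicate 2, 2 ligands (Wnt4 and Wnt7a) had a touched entry in all remaining lists, so the count of 0 rests on that list.

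The distances involved were short. In dDAVP replicate 2 the first covered base lay 265 bp downstream of the start of Wnt4, 59 bp downstream of that of Wnt7a, 77 bp downstream of that of Wnt9a and 173 bp downstream of that of Wnt9b. In vehicle replicate 2 the starts of Wnt4 and Wnt7a were covered, and the peaks began 36 bp and 134 bp downstream of those of Wnt9a and Wnt9b. All 4 starts were covered in vehicle replicate 1. In dDAVP replicate 1 the starts of Wnt4 and Wnt7a were covered, and the peaks began 211 bp and 159 bp downstream of the other two. Wnt9a was the 1 ligand whose entry was touched in both vehicle lists and neither dDAVP list, a pattern of 0.400% of all genes with an entry. Its entry shared only 14 bp with the peak of vehicle replicate 2. These edges are positions set by the peak caller, and their precision was not measured.

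**Figure D4:**
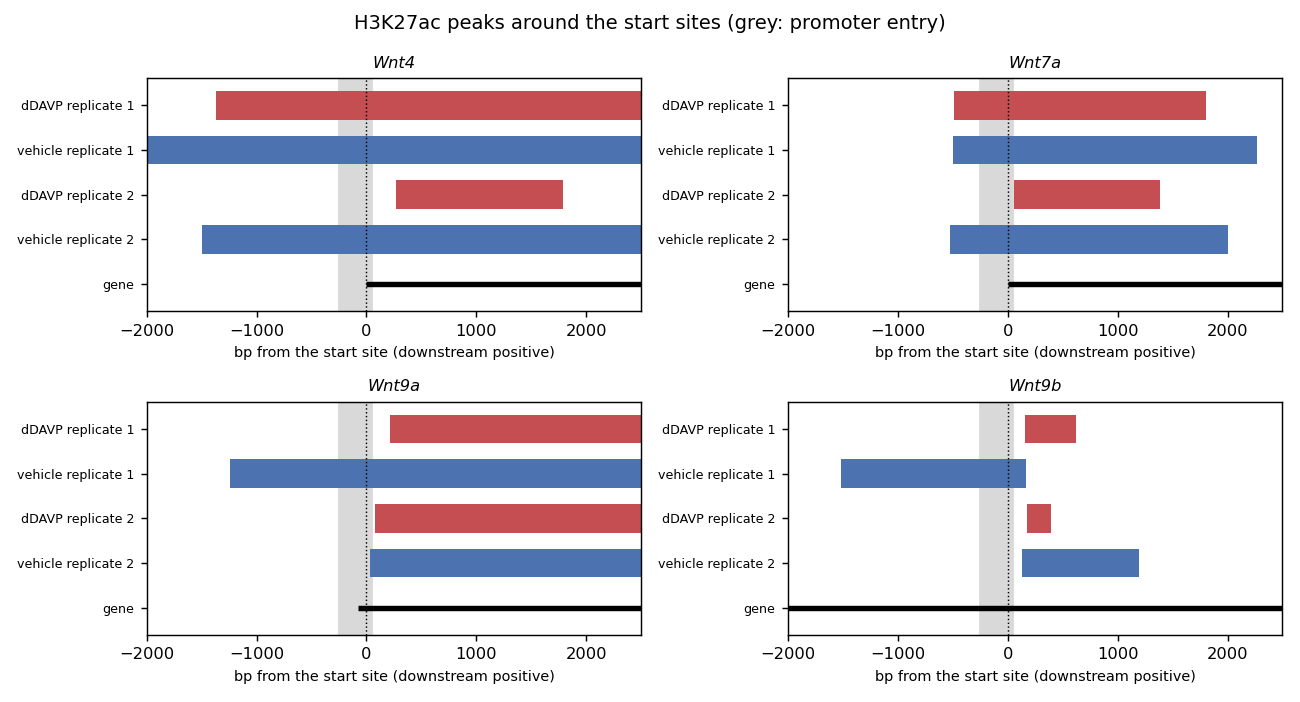
H3K27ac peaks around the start sites of 4 ligands (bp from the start, downstream positive), 1 row per list, with the promoter entry in grey and the gene in black. The peak of dDAVP replicate 2 begins downstream of the grey band in all 4 panels, and that of vehicle replicate 1 spans it in all 4.

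Genes acting with the ligands were marked unevenly. Both genes of ligand secretion, Porcn (which attaches the lipid) and Wls (the carrier of Wnt proteins to the surface), had a gene end within 1 kb of a peak in all 4 lists. So had 7 of 10 Frizzled receptor genes (Fzd1, Fzd2, Fzd4, Fzd5, Fzd6, Fzd7 and Fzd8), 4 of 8 co-receptor genes with Lrp5 and Lrp6 among them, 8 of 9 genes of intracellular signalling and 5 of 8 genes of nuclear factors. Low counts were found for secreted inhibitors, 1 of 11 (Sfrp5), and for common targets, 3 of 11 (Myc, Znrf3 and Rnf43), with Axin2, Lgr5, Nkd1 and Sp5 at 0 lists. R-spondins and their receptors gave 3 of 9, the 4 R-spondin genes being at 0 lists. Of the listed ligands 5 of 10 met this rule, Wnt9b not being among them because its annotated start lies inside its RefSeq span. Of the 9 Wnt genes not listed 0 met it, and Wnt5b did so in 3 lists and Wnt16 in vehicle replicate 1 alone. Among the 71 other pathway genes, each counted once, 31 met the rule in all 4 lists, beside the 45.2% of all genes given above. In no list did 33 of them meet it, a count for which no share of all genes was taken. In the 20 kb windows of the 71 genes, 43 (60.6%) had a peak in all 4 lists, near the 62.0% of all genes. Of these 43 genes, 27 (62.8%) had fewer covered bases with dDAVP in both experiments and 0 had more, beside 52.5% and 2.34% of all genes. Their median ratios were 0.889 and 0.648, beside 0.985 and 0.694.

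**Figure D5:**
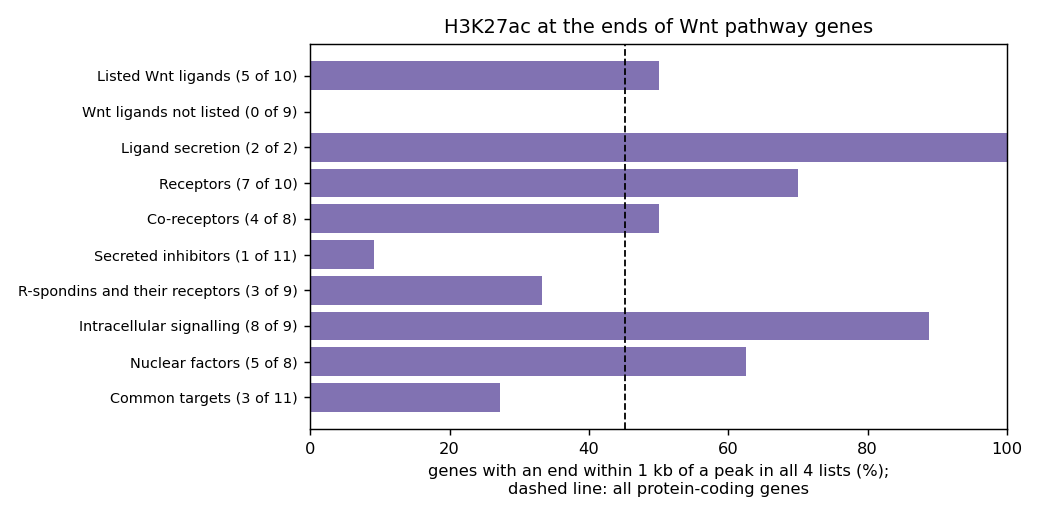
Share of genes (%) with a gene end within 1 kb of a peak in all 4 lists, for the listed ligands and the other Wnt pathway lists, with counts beside the names and a dashed line at the 45.2% of all protein-coding genes. Ligand secretion and intracellular signalling lie far above the line, secreted inhibitors far below it, and Wnt genes not listed at 0.

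The genes whose covered bases were closest to those of Wnt7a over the 4 lists were Cpa6, Aprt, Gm42166, Prss36 and Scel. Closeness is the Euclidean distance on the log2(bp + 1) scale over 4 values, which was 0.254 for Cpa6 and 0.365 for Scel. Cpa6 had 17595 and 23252 bp covered in experiment 1, dDAVP first, and 9162 and 18682 bp in experiment 2.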

How the data were processed

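H3K27ac peak lists of 4 libraries were used, 1 per treatment and experiment. Per the file headers, the authors called each list with MACS 2.1.1.20160309 in broad mode against its own input library, with q limits of 0.01 (strong) and 0.1 (broad), keeping 1 tag per position. Alignment used BWA to mm10, per the submitters' processing notes. The deposited fold enrichment is a ratio over local background, and the deposited pileup signal was not used. Columns with lost names were read as the deposited -log10 p and -log10 q from their order. The files are attached to the input records, while the file headers name the precipitated library. Peak names inside the lists of experiment 2 carry the number 3 while their headers and the labels say 2, and the pairing follows the labels. Fold ranks peaks within a list, and some alternatives apply 1 limit of fold or -log10 q to all lists.

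Covered bases, merged regions, start sites and background counts over the genome were computed with Python 3.11.15 and pandas 2.3.3, with arithmetic tested on simulated data. Gene positions came from RefSeq (GRCm38.p6). Named genes are the ligands, genes overlapping their windows, the pathway and marker lists, and the 5 genes nearest to Wnt7a in covered bases. Members and lists were chosen with earlier results of these data known. No test was made, since 2 pairs cannot give an exact permutation p below 0.5. Whether the experiments used separately grown cultures is not stated.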

Additional observations from a re-analysis of the deposited data

How the results depend on the processing

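The count of 9 ligands with a peak in all 4 lists was 1 at a fold of at least 5 (Wnt7b) and 2 in lists of equal covered bases (Wnt7b and Wnt9a). It was 6 at -log10 q of at least 5 and over the gene alone, 7 at equal covered bases within each experiment, and 8 with windows of 10 kb. Under the other settings it stayed at 9. Over the gene alone the share of all genes was 49.5%. For the other changed settings no share of all genes was counted, so these lower counts are not a result about the ligands. The count of 8 ligands with fewer covered bases with dDAVP in both experiments was 3 at a fold of at least 5, 3 in lists of equal covered bases and 4 over the gene alone. It stayed within 1.5 times under the other settings run (-log10 q of at least 5, equal length, equal length or equal covered bases within each experiment, peaks with 50% in the window, windows of 10 and 50 kb). The number with more in both was 0, except for 1 (Wnt11) at equal covered bases within each experiment. Leaving out a list left 1 complete pair, so counts of fewer or more then rest on 1 experiment. Without either list of experiment 2, experiment 1 remained, where 8 ligands had fewer and 1 (Wnt11, by 147 bp) had more. Without either list of experiment 1, experiment 2 remained, where 9 had fewer and 0 had more. Of the 10 settings of fold, -log10 q, list length, covered bases and window, Wnt9a had fewer in both under all 10, and Wnt7a and Wnt7b under 9. The number was 8 for Wnt10a and Wnt10b, 6 for Wnt4 and Wnt6, 5 for Wnt9b and 0 for Wnt11. All settings reuse the same 4 lists, and no share of all genes was counted for this. Wnt4, at equal covered bases, turned to 1670.5 bp more with dDAVP over all lists and 1655 bp more within each experiment, since the vehicle list of experiment 2 kept no peak there. Wnt11, whose experiments already differed in direction, went from -110.5 to 613.5 and 687 bp. Among the 7 ligands with a promoter entry, starts with a peak in all lists numbered 4 within 1 kb, against 0 at the promoter entry. At the entry they numbered between 0 and 2 when a list was left out. Without pairing (no replicate block) the mean difference of Wnt7a was the same -7146.5 bp, with an SD of 6318 bp in place of 680. The lists hold called peaks alone, so signal below the calling limit is not seen. No group had enough lists for a search for outlying samples.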
